A study of Mus musculus with 12 samples.

Results

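The transcription factors that set and hold hepatocyte identity were followed in 12 adult mouse livers. They were chosen by gene name: *Hnf4a*, the 3 Foxa genes (*Foxa1*, *Foxa2*, *Foxa3*), *Cebpa* and *Cebpb*, *Onecut1*, *Prox1* and *Gata4*, which are 9 of the 41743 genes in each deposited table. Bulk RNA sequencing of frozen whole liver was available from 4 groups of 3 adult female mice. All 12 mice were listed at 3 to 4 months of age, and the exact age of each within that range is not given in the sources used here. YAP KO mice (C57BL/6) carried *Foxa3*-Cre, *Yap1* fl/fl and ROSA-stop fl/fl-EYFP and so lost both copies of *Yap1*. YAP KO TAZ HET mice (mixed C57BL/6-FVB background) carried *Foxa3*-Cre, lost both copies of *Yap1* and lost 1 copy of *Wwtr1*, the gene for TAZ. Each knockout was compared with its own WT littermates, WT (C57BL/6) or WT (mixed). Whether the WT littermates carried the Cre transgene or floxed alleles is not given in the sources used here.

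Cre was driven by the promoter of *Foxa3*, itself among the 9 factors, from foregut endoderm onward. Deletion is thus meant to cover hepatocytes and the biliary lineage but not the blood, endothelial or stromal cells of the liver. The paper mentions evidence, not shown there, that this Cre line also acts in the developing kidney, a mesoderm organ. Which liver cells lost *Yap1* was not tested. YAP and TAZ are transcriptional coactivators that bind TEAD factors. Hepatocyte identity factors bind each other's promoters and enhancers as well as those of liver genes, and so form a network that sustains itself. FOXA proteins open chromatin in early endoderm, GATA4 acts beside them in liver specification, PROX1 and ONECUT1 (also called HNF6) act as hepatoblasts grow out and choose between hepatocyte and biliary fates, and HNF4A and C/EBP-alpha maintain the metabolic genes of the adult hepatocyte. C/EBP-beta shares DNA sites with C/EBP-alpha and is known for its part in the acute phase response and regeneration.

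Levels are given as TPM (a measure of transcripts per transcript length in which each library sums to 1000000). Differences are log2 fold changes of scaled TPM + 1, knockout minus WT, from limma with Benjamini-Hochberg adjustment over all genes tested and a threshold of 0.05. Scaling (a trimmed mean of log ratios) divided YAP KO libraries by 1.08 to 1.23 and their WT libraries by 0.857 to 0.908, and YAP KO TAZ HET libraries by 1.07 to 1.18 and their WT libraries by 0.858 to 0.947. The scaling moves the whole distribution. The median over all genes tested lay at -0.04 for each knockout with it and at 0.28 and 0.24 when it was left out, and the share of called genes that were higher was 51.1% and 50.2% with it and 84% and 82.2% when it was left out. A TPM ratio and a log2 fold change of the same gene can therefore point in different directions, and this is stated where it happens. Depth is not given by TPM. *Yap1* was at 1.67 to 3.72 TPM in YAP KO against 28.2 to 30.5 in WT (C57BL/6), and at 8.63 to 11.5 TPM in YAP KO TAZ HET against 31 to 33.2 in WT (mixed). *Wwtr1* was at 13.3 to 16.7 TPM in YAP KO, 11.5 to 14.1 in the libraries labelled YAP KO TAZ HET and 6.26 to 8.38 in the 6 WT libraries, so its level does not check the TAZ HET label.

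The factors span a wide range of levels. Over the 12 livers *Cebpa* (379 TPM), *Cebpb* (284 TPM) and *Hnf4a* (224 TPM) stood above *Foxa3* (49.5 TPM), *Prox1* (33.3 TPM) and *Foxa2* (22 TPM), and the lowest were *Onecut1* (8.99 TPM), *Gata4* (8.94 TPM) and *Foxa1* (8.74 TPM). *Cebpa* lay at percentile 97.2 of all tested genes by mean level and *Foxa1* at percentile 44.8. The 8 hepatocyte markers (*Alb*, *Ttr* and others) summed to 99012 to 112050 TPM in WT (C57BL/6), 92454 to 98135 in YAP KO, 90482 to 112515 in WT (mixed) and 85546 to 102653 in YAP KO TAZ HET. Most of each sum was *Alb*, with means of 78604, 60138, 75447 and 61512 TPM in the same order. The YAP KO sums lay under every WT (C57BL/6) sum, the mixed sets overlapped, and 4 of the 8 markers were lower and 1 higher in each knockout. The higher one was *Hpx* in both, with means going from 3942 to 13021 TPM and from 3293 to 12217 TPM. The part of these 8 markers in the values of the 9 factors was not tested. The order of the factors' levels is plotted with every liver in the panels of TPM by group.

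**Figure D1:**
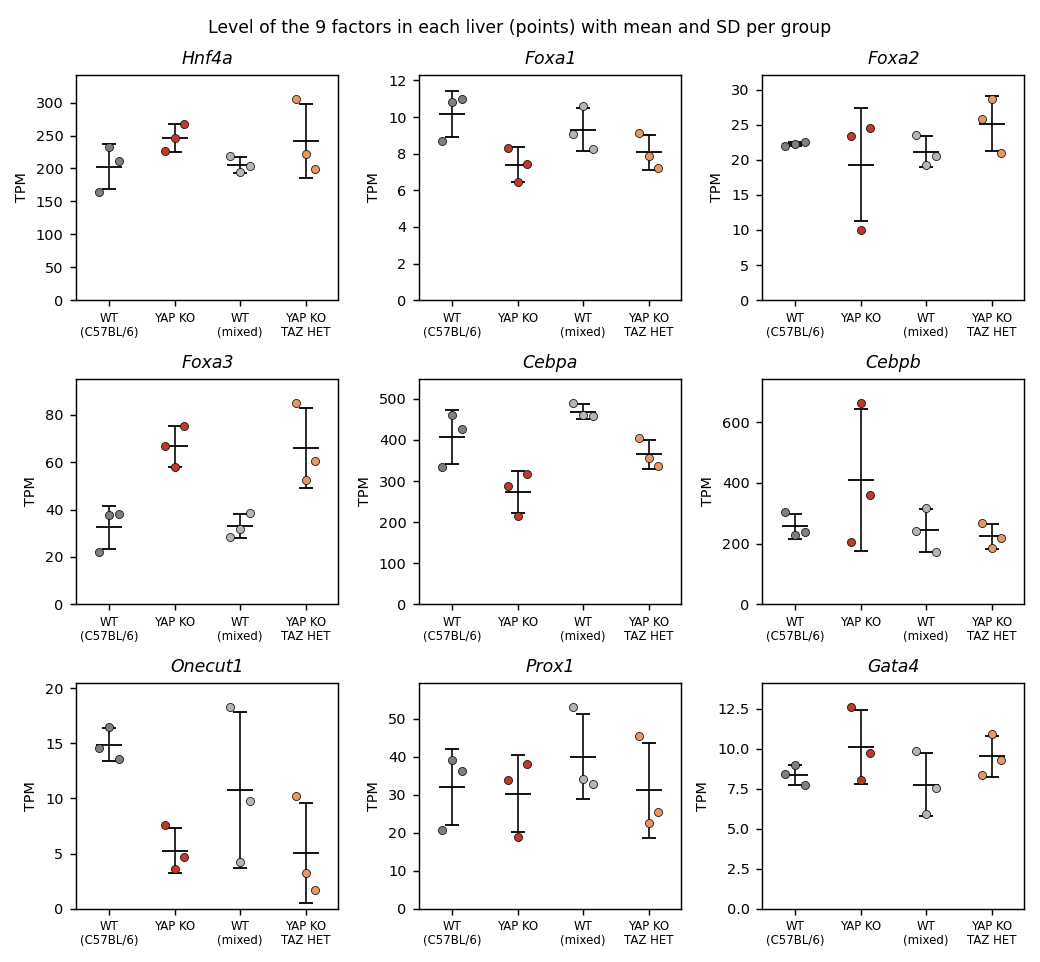
TPM of each of the 9 factors (y axis, linear and from 0) in each liver (points) of the 4 groups (x axis), with the group mean and SD (n = 3) as bars. *Foxa3* lies at 52.4 TPM or above in all 6 knockout livers and at 38.5 TPM or below in all 6 WT livers. *Onecut1* is widely spread in the mixed-background groups, and *Cebpb* and *Foxa2* each have 1 YAP KO liver far from the other 2.

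Promoter sequence is shown for the 5 factors that the comparisons below turn on: *Cebpa*, *Foxa1* and *Onecut1*, which were lower in YAP KO, *Foxa3*, which was higher in both knockouts, and *Hnf4a*, the reference for the ratios within a liver. The sequences are from RefSeq (GRCm38.p6), in which 8 of the 9 factors had a window (12 windows, *Gata4* had none). Each is the stretch of the 250 bases before an annotated start that holds no annotated exon, written 5' to 3' on the strand of the gene. Capitals mark short words known from the sites of liver factors, searched on both strands. For HNF4A the word was CAAAGTCC, which is a part of its full site. For HNF1, another homeodomain factor of liver, it was GTTAAT. The FOXA proteins were searched with TGTTTAC and, as a second allowed spelling of the same site, TATTTAC. The C/EBP proteins were searched with TTGCNNAA, in which N is any base. The ONECUT proteins, HNF6 among them, were searched with ATCAAT. The GATA proteins were searched with AGATAA and, as a second allowed spelling of the same site, TGATAA. The TEAD partners of YAP and TAZ were searched with GGAATG. The TATA box, added after the sequences were seen, was searched as TATAAA. No 2 of these matches overlapped in the stretches shown.
*Cebpa* (chr7:35119043-35119292, + strand): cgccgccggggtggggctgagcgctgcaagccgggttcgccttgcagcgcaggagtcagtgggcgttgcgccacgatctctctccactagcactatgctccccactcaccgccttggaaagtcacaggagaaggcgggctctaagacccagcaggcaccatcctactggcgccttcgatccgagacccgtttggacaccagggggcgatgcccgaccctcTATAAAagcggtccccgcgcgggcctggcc
*Foxa3* (chr7:19023540-19023789, - strand): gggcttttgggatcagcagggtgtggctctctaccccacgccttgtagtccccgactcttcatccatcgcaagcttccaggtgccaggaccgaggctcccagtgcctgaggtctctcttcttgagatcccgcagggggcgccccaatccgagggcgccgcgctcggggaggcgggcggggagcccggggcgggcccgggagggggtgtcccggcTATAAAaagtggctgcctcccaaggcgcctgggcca
*Onecut1* (chr9:74861671-74861920, + strand): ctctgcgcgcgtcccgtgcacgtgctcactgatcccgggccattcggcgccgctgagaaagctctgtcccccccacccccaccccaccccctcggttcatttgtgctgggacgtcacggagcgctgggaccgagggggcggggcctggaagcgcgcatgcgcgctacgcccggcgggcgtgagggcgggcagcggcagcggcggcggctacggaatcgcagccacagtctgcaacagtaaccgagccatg
*Foxa1* (chr12:57546122-57546361, - strand): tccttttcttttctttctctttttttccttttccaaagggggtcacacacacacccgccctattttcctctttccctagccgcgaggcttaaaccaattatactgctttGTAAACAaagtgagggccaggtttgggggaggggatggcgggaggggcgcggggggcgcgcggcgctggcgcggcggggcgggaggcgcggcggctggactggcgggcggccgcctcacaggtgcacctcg
*Hnf4a* (chr2:163546943-163547154, + strand, the downstream of its 2 annotated starts): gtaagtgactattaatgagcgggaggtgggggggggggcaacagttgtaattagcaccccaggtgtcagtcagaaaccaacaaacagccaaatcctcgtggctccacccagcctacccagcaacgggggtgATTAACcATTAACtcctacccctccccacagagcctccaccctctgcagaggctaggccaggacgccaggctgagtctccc
The *Cebpa* and *Foxa3* windows each held a TATA box, at position -30 and position -36 from the start, a word present in 12.4% of all 32851 windows of the same length. The *Foxa1* window held a FOXA word at position -141, as did 5.76% of all windows. The *Hnf4a* window held the HNF1 word at position -81 and position -74, as did 6.43% of all windows. The *Onecut1* window held none of the words searched. Neither the TEAD word (12.6% of all windows) nor the C/EBP word (9.56% of all windows) nor the HNF4A word (1.2% of all windows) was in any of the 12 windows of the 8 factors. The windows of *Cebpa* (66.4% G or C), *Foxa3* (68.8%), *Onecut1* (71.6%) and *Foxa1* (62%) are GC-rich against a median of 52.4% over all windows. The *Hnf4a* window shown was at 57.6%, and the 12 windows ran from 50.8% to 81.6%. A match describes letters only.

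The test was passed by 4 of the 9 factors in YAP KO and by 4 for YAP KO TAZ HET, and 3 of these were shared: *Foxa1* and *Cebpa* were lower and *Foxa3* was higher in both. *Onecut1* was also lower in YAP KO, and *Prox1* in YAP KO TAZ HET. Changes were common in these livers, since 36.7% of the 11704 genes tested passed in YAP KO (18.8% higher and 18% lower) and 38.2% of the 11741 in YAP KO TAZ HET (19.2% higher and 19% lower), so the number of factors called is not particular to them. The median log2 fold change of the 9 factors was -0.44 in YAP KO and -0.42 for YAP KO TAZ HET, beside -0.04 over all genes tested in each. In whole liver, fewer hepatocytes and less RNA per hepatocyte cannot be told apart.

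**Figure D2:**
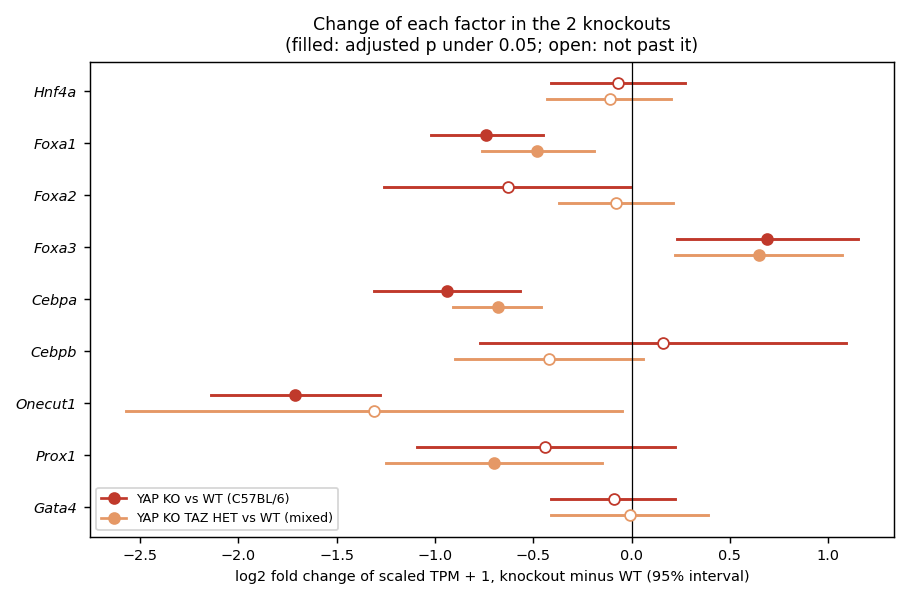
Log2 fold change of scaled TPM + 1 with its 95% interval (x axis) for each factor (y axis) in YAP KO against WT (C57BL/6) (red) and in YAP KO TAZ HET against WT (mixed) (orange), limma, n = 3 mice per group. Filled points passed an adjusted p of 0.05. *Foxa1*, *Foxa3* and *Cebpa* are filled in both knockouts, and *Hnf4a* and *Gata4* are open with intervals across 0 in both.

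*Hnf4a* (chr2:163506808-163572910, + strand), the nuclear receptor on which most hepatocyte genes depend, was at 165, 233 and 211 TPM in WT (C57BL/6) and at 226, 246 and 268 TPM in YAP KO. WT (mixed) livers gave 219, 195 and 204 TPM, and YAP KO TAZ HET livers 306, 222 and 199 TPM. Knockout and WT ranges overlapped in both sets, with the highest value in 1 YAP KO TAZ HET liver. The log2 fold change was -0.07 in YAP KO (95% interval -0.41 to 0.27, limma adjusted p = 0.746) and -0.11 for YAP KO TAZ HET (-0.43 to 0.20, limma adjusted p = 0.545). The intervals leave out a change in scaled level as large as that of *Cebpa* in either set. On the TPM scale the means stood 1.22 and 1.17 times as high in the knockouts as in WT, so the direction for *Hnf4a* turns with the scaling (0.29 and 0.21 on the log2 scale with none).

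*Cebpa* (chr7:35119293-35121928, + strand) encodes C/EBP-alpha, which drives metabolic genes and restrains hepatocyte division. It was at 334, 461 and 427 TPM in WT (C57BL/6) and at 289, 216 and 316 TPM in YAP KO. The mixed-background WT livers gave 490, 460 and 457 TPM, and YAP KO TAZ HET livers 405, 355 and 337 TPM. Every knockout liver lay under every WT liver of its own set, on the TPM scale and after scaling. *Cebpa* fell by 0.94 on the log2 scale in YAP KO (SE 0.16, limma adjusted p = 0.00284) and by 0.68 for YAP KO TAZ HET (SE 0.10, limma adjusted p = 0.00114). It kept its call in each of 6 fits that left out 1 liver, in both sets, and lost it in YAP KO TAZ HET under quantile normalization (-0.29, limma adjusted p = 0.0516).

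*Cebpb* (chr2:167688915-167690418, + strand), which encodes C/EBP-beta, was the factor with the least even YAP KO group. It was at 303, 230 and 238 TPM in WT (C57BL/6) and at 206, 664 and 360 TPM in YAP KO. In WT (mixed) it was at 241, 316 and 174 TPM, and in YAP KO TAZ HET livers at 268, 185 and 218 TPM. The liver LM189 gave 664 TPM, the highest of the 12, while another YAP KO liver (LM74, 206 TPM) lay under every WT (C57BL/6) liver. On the log2 scale the fold change was 0.16 in YAP KO (95% interval -0.77 to 1.09, limma adjusted p = 0.783) and -0.42 for YAP KO TAZ HET (-0.90 to 0.06, limma adjusted p = 0.146). Without LM189 the value in YAP KO was -0.30, and without WT (mixed) LM230 the value in YAP KO TAZ HET was -0.61 and passed (limma adjusted p = 0.0467). *Tmem189* lies across *Cebpb* on the other strand and was at 6.52 to 16.9 TPM. Whether reads were counted by strand is not given in the sources used here, and the part of *Tmem189* reads in the *Cebpb* value was not tested.

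The balance of the C/EBP pair was compared within each liver. *Cebpb* made up 47.6%, 33.3% and 35.8% of the summed TPM of *Cebpa* and *Cebpb* in WT (C57BL/6), and 41.7%, 75.5% and 53.3% in YAP KO. It made up 33%, 40.8% and 27.6% in WT (mixed), and 39.9%, 34.3% and 39.2% in YAP KO TAZ HET. Groups overlapped in both sets, and LM189 was the only liver of the 12 with over 3 times as much *Cebpb* as *Cebpa* (3.08). The log2 ratio of *Cebpb* to *Cebpa* was 1.10 higher in YAP KO and 0.26 higher in YAP KO TAZ HET, a mean of 0.68 (exact stratified permutation p = 0.075, two-sided).

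The 3 Foxa genes went separate ways. *Foxa3* (chr7:19013284-19023538, - strand), the family member that continues at a high level in adult hepatocytes, was at 22, 37.5 and 38.1 TPM in WT (C57BL/6) and at 66.9, 57.9 and 75.1 TPM in YAP KO. WT (mixed) livers gave 28.5, 31.9 and 38.5 TPM, and YAP KO TAZ HET livers 85, 52.4 and 60.6 TPM. All knockout livers lay above all WT livers, and the mean TPM was 2.05 and 2 times that of WT. The log2 fold change was 0.69 in YAP KO (SE 0.20, limma adjusted p = 0.0289) and 0.65 for YAP KO TAZ HET (SE 0.19, limma adjusted p = 0.0255). The rise was close to the threshold. In YAP KO the call was lost with no filter on low values (0.69, limma adjusted p = 0.0538), and without LM74 (0.74, limma adjusted p = 0.0556), LM189 (0.75, limma adjusted p = 0.0521) or LM191 (0.58, limma adjusted p = 0.0963). In YAP KO TAZ HET it was lost without WT LM226 (0.51, limma adjusted p = 0.0812), WT LM227 (0.64, limma adjusted p = 0.0653), LM225 (0.49, limma adjusted p = 0.0635) or LM251 (0.66, limma adjusted p = 0.0695). The direction was higher in each of these fits. Knockout mice carry the *Foxa3*-Cre transgene, and whether it holds *Foxa3* sequence that would be counted is not given in the sources used here, so transgene and endogenous *Foxa3* cannot be told apart.

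*Foxa1* (chr12:57540628-57546916, - strand), a pioneer factor of endoderm, was at 8.69, 10.8 and 11 TPM in WT (C57BL/6) and at 8.33, 6.43 and 7.41 TPM in YAP KO. The mixed-background WT livers gave 9.07, 10.6 and 8.26 TPM, and YAP KO TAZ HET livers 9.13, 7.86 and 7.22 TPM. The groups were apart in the C57BL/6 set, whereas in the mixed set the TPM ranges overlapped and parted only after scaling. *Foxa1* fell by 0.74 on the log2 scale in YAP KO (SE 0.12, limma adjusted p = 0.0026) and by 0.48 for YAP KO TAZ HET (SE 0.13, limma adjusted p = 0.0184). The second call was lost with no scaling (-0.19, limma adjusted p = 0.326), with the 100 highest genes left out of the total (-0.24, limma adjusted p = 0.172), and without WT LM227 (-0.37, limma adjusted p = 0.0631), LM250 (-0.47, limma adjusted p = 0.0596) or LM251 (-0.43, limma adjusted p = 0.0696).

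*Foxa2* (chr2:148042877-148046969, - strand), which acts with *Foxa1* in liver specification and in bile acid handling, passed in neither set. Its level was 22, 22.2 and 22.6 TPM in WT (C57BL/6), a group with a CV of 1.4%, and 23.4, 10 and 24.5 TPM in YAP KO. In WT (mixed) it was at 23.6, 19.3 and 20.6 TPM, and in YAP KO TAZ HET livers at 25.8, 28.7 and 20.9 TPM. Of the YAP KO livers LM189 stood low, and after scaling all 3 lay under the WT (C57BL/6) livers. On the log2 scale the fold change was -0.63 in YAP KO (95% interval -1.26 to -0.01, limma adjusted p = 0.104) and -0.08 for YAP KO TAZ HET (-0.37 to 0.21, limma adjusted p = 0.663), the latter turning to 0.23 with no scaling. Without LM189 the YAP KO value was -0.28 (limma adjusted p = 0.133), and without LM191 it was -0.87 (limma adjusted p = 0.0453). The YAP KO value also passed when all 12 libraries were fitted together (-0.64, limma adjusted p = 0.0449).

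The makeup of the family shifted accordingly. *Foxa3* gave 49.4% ± 6.56 (SD, n = 3) of the summed Foxa TPM in WT (C57BL/6) and 71.9% ± 5.25 in YAP KO, and 51.8% ± 5.26 in WT (mixed) and 66% ± 6.31 in YAP KO TAZ HET. The share of *Foxa1* was 15.7% ± 0.646 in WT (C57BL/6) and 8% ± 0.94 in YAP KO, and 14.8% ± 2.48 in WT (mixed) and 8.19% ± 0.609 in YAP KO TAZ HET. *Foxa2* went from 34.9% ± 5.92 to 20.1% ± 5.69 and from 33.5% ± 4.44 to 25.8% ± 5.72. The ranges for *Foxa1* and *Foxa3* did not overlap between knockout and WT in either set. Such shares do not depend on the scaling, but a higher share of *Foxa3* lowers the others by construction.

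*Onecut1* (chr9:74861921-74891781, + strand), which encodes HNF6, had the largest log2 fold change of the 9 factors in both sets. It was at 14.6, 16.5 and 13.6 TPM in WT (C57BL/6) and at 7.58, 3.55 and 4.68 TPM in YAP KO. These groups were far apart, and the mean TPM in YAP KO was 0.354 of that in WT. *Onecut1* fell by 1.71 on the log2 scale (SE 0.19, limma adjusted p = 3.52e-04), and the call held in each of 6 fits that left out 1 liver (-1.90 to -1.53). WT (mixed) livers gave 18.3, 4.25 and 9.73 TPM, and YAP KO TAZ HET livers 10.2, 3.26 and 1.64 TPM. There the groups overlapped, with a CV of 65.8% in WT (mixed) and 90.1% in YAP KO TAZ HET against 9.79% in WT (C57BL/6). The log2 fold change of -1.31 (SE 0.55) did not pass (limma adjusted p = 0.0933). It passed without WT LM227 (-1.80, limma adjusted p = 0.0347) or without LM225 (-1.83, limma adjusted p = 0.0178), which are the lowest WT liver and the highest knockout liver. It also passed when all 12 libraries were fitted together (-1.31, limma adjusted p = 0.0417).

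*Prox1* (chr1:190118035-190170714, - strand), a homeodomain factor of hepatoblasts and also of lymphatic endothelium, was at 20.6, 39.1 and 36.2 TPM in WT (C57BL/6) and at 33.9, 18.8 and 38.1 TPM in YAP KO. The mixed-background WT livers gave 53, 34.2 and 32.8 TPM, and YAP KO TAZ HET livers 45.4, 22.6 and 25.3 TPM. The TPM ranges overlapped in both sets. The log2 fold change was -0.44 in YAP KO (95% interval -1.09 to 0.22, limma adjusted p = 0.266), while in YAP KO TAZ HET *Prox1* fell by 0.70 (95% interval -1.25 to -0.15, limma adjusted p = 0.0488). That call was the least stable of all, since it was lost in 5 of 6 fits that left out 1 liver: without WT LM226 (-0.52, limma adjusted p = 0.147), WT LM227 (-0.78, limma adjusted p = 0.0691), WT LM230 (-0.79, limma adjusted p = 0.064), LM250 (-0.53, limma adjusted p = 0.152) or LM251 (-0.62, limma adjusted p = 0.144). It was also lost with no scaling (-0.39, limma adjusted p = 0.281), and it held in 2 of 15 alternatives in all. The 5 lymphatic endothelium markers summed to 13.2 to 22 TPM in WT (mixed) and 12.2 to 15.2 TPM in YAP KO TAZ HET. Most of this was *Flt4* (means 10.3 and 9.31 TPM), and *Pdpn* and *Mmrn1* were under 1 TPM throughout. The means of these low genes went opposite ways, *Pdpn* from 0.0648 to 0.597 TPM and *Mmrn1* from 0.295 to 0.0687 TPM. Of the 3 tested, 2 (*Flt4* and *Lyve1*) were lower in YAP KO TAZ HET. The part of lymphatic cells in the *Prox1* value was not tested.

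*Gata4* (chr14:63198922-63271692, - strand), a zinc finger factor of liver specification that is also made by sinusoidal endothelium and stellate cells, was at 8.39, 8.96 and 7.72 TPM in WT (C57BL/6) and at 12.6, 8.03 and 9.74 TPM in YAP KO. In WT (mixed) it was at 9.83, 5.89 and 7.55 TPM, and in YAP KO TAZ HET livers at 8.34, 10.9 and 9.3 TPM. Groups overlapped in both sets. On the log2 scale the fold change was -0.09 (95% interval -0.41 to 0.22, limma adjusted p = 0.623) and -0.01 (-0.41 to 0.39, limma adjusted p = 0.979), and it turned to 0.23 and 0.28 with no scaling. *Gata6*, the related factor, was at 3.02 to 4.58 TPM in WT (C57BL/6) and 8.69 to 9.93 TPM in YAP KO, and at 3.55 to 4.66 TPM in WT (mixed) and 6.95 to 9.08 TPM in YAP KO TAZ HET, and rose in both (0.82, limma adjusted p = 0.00438, and 0.52, limma adjusted p = 0.0265).

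Ratios of 2 factors within the same liver avoid the scaling between libraries. In all, 12 ratios were compared, and the p-values are unadjusted. Within 1 set (3 against 3) the exact permutation test cannot go under p = 0.1, and over both sets, with labels permuted within each set, not under p = 0.005. Against *Hnf4a*, *Cebpa* was at 1.02, 0.99 and 1.02 on the log2 scale in WT (C57BL/6) and at 0.35, -0.19 and 0.24 in YAP KO, and at 1.16, 1.24 and 1.16 in WT (mixed) and 0.41, 0.68 and 0.76 for YAP KO TAZ HET. The WT livers thus held a nearly fixed ratio near 2 (1.98 to 2.36) and all 6 knockout livers lay under it (0.879 to 1.7). The mean difference was -0.72 (exact stratified permutation p = 0.005, two-sided, the smallest possible).

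*Foxa3* relative to *Hnf4a* was 0.78 higher on the log2 scale (exact stratified permutation p = 0.005) and *Foxa1* relative to *Hnf4a* 0.59 lower (-0.59, p = 0.005), both at the smallest possible p and each in the same direction in every knockout liver against every WT liver of its set. *Onecut1* relative to *Hnf4a* differed by -1.67 (exact stratified permutation p = 0.01), with -1.86 in the C57BL/6 set and -1.47 in the mixed set. *Prox1* relative to *Hnf4a* differed by -0.49 (exact stratified permutation p = 0.035), and this p was over 0.05 in 6 of the 12 repeats that left out 1 liver. *Foxa2* (-0.29, exact stratified permutation p = 0.315), *Cebpb* (-0.04, p = 0.905) and *Gata4* (0.04, p = 0.865) missed the threshold relative to *Hnf4a*. *Foxa3* relative to *Foxa2* was 1.06 higher (exact stratified permutation p = 0.01) and *Foxa1* relative to *Foxa2* differed by -0.30 (p = 0.18). *Gata6* relative to *Gata4* was 0.85 higher (exact stratified permutation p = 0.01).

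**Figure D3:**
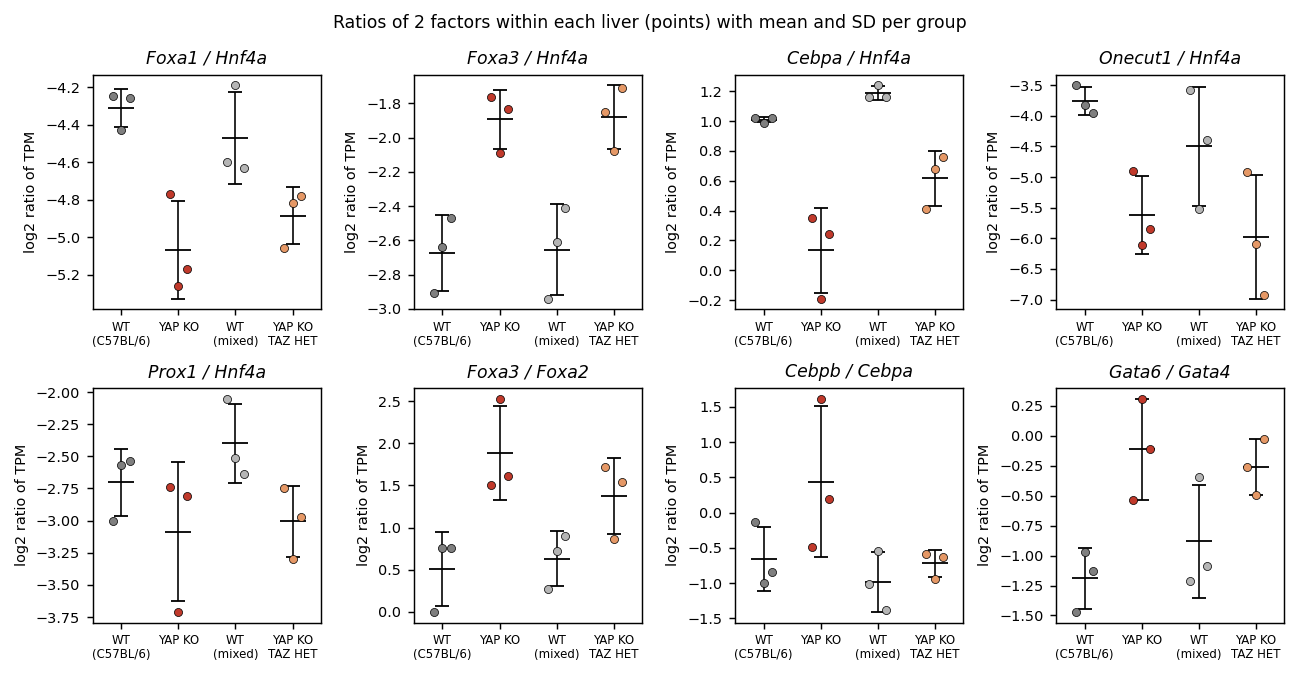
Log2 ratio of the TPM of 2 factors (y axis, a different range in each panel) in each liver (points) of the 4 groups (x axis), with mean and SD (n = 3). *Cebpa* / *Hnf4a* lies between 0.99 and 1.24 in all 6 WT livers and at 0.76 or below in all 6 knockout livers, and *Foxa3* / *Hnf4a* is higher in each knockout liver than in each WT liver. *Cebpb* / *Cebpa* overlaps between groups, with LM189 at 1.62.

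No factor passed the test of a difference between the models. The difference of the log2 fold changes, YAP KO minus YAP KO TAZ HET in a fit over all 12 livers, ran from -0.56 for *Foxa2* (95% interval -1.29 to 0.16) to 0.58 for *Cebpb* (-0.54 to 1.69), and 0 of 9 factors passed (limma adjusted p = 0.999 for each), with 0 also at an unadjusted p under 0.05. Of all 12159 genes tested, 0.0658% passed and 557 had an unadjusted p under 0.05. The intervals for *Foxa1* (-0.64 to 0.10), *Foxa3* (-0.61 to 0.69) and *Cebpa* (-0.68 to 0.15) still allow differences about as large as the changes themselves. The change of *Yap1* itself differed between the models (-1.59, limma adjusted p = 0.0326). Genetic background, the mouse lines, *Wwtr1* copy number and the extent of *Yap1* loss cannot be told apart in this contrast. Between the WT groups, mixed minus C57BL/6, 0 of 9 factors passed with limma, and 0 at an unadjusted p under 0.05, beside 0.216% of 11126 genes tested and 649 genes at an unadjusted p under 0.05. *Onecut1* had the largest value of the factors there (-0.68, 95% interval -1.53 to 0.17, limma adjusted p = 0.918).

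Markers of several other cell types differed in the knockout groups, not all in the same direction. Summed biliary markers stood at 37 to 64.8 TPM in WT (C57BL/6), 336 to 759 in YAP KO, 50.7 to 69.5 in WT (mixed) and 110 to 231 in YAP KO TAZ HET, most of it *Spp1*. Of the 5 tested, 2 (*Spp1* and *Sox9*) were higher in each knockout, and *Epcam* was lower in YAP KO TAZ HET (-1.48, limma adjusted p = 0.00118). Mean *Krt19* was 0.962 TPM in WT (C57BL/6), 1.63 in YAP KO, 3.02 in WT (mixed) and 1.02 in YAP KO TAZ HET and did not pass, while *Krt7* and *Cftr* stayed under 1 TPM in all 12 livers. Mean *Muc1*, which was not tested, was 0.563, 0.181, 1.32 and 0.288 TPM in the same order. The biliary sum is not a measure of bile ducts, since the paper reported no intrahepatic ducts by CK19 staining in adults of either knockout. Kupffer cell and macrophage markers summed to 210 to 262 TPM in WT (C57BL/6), 510 to 797 in YAP KO, 189 to 401 in WT (mixed) and 776 to 977 in YAP KO TAZ HET, and 7 of 8 were higher in each knockout. Among them *Trem2*, had WT means of 0.767 and 0.663 TPM and entered the test through the knockout livers, so its call was favoured by the filter. Stellate and fibroblast markers summed to 144 to 170, 407 to 517, 128 to 157 and 339 to 425 TPM in the same order. Of these, 5 of 9 were higher in each knockout, and 1 (*Lrat*) was lower in YAP KO (-0.85, limma adjusted p = 0.00943). Monocyte and neutrophil markers (6 of 6 tested higher in YAP KO, 4 of 6 in the other knockout) summed to 18.5 to 21.9, 64.9 to 90.5, 10.8 to 18.4 and 35.9 to 97.2 TPM. Of these, *Itgam* and *Ccr2* were under 1 TPM in all WT livers and entered the test through the knockout livers only, so their calls were favoured by the filter. Sinusoidal and vascular endothelium markers summed to 92.2 to 100, 82.2 to 122, 121 to 128 and 100 to 141 TPM. Of the 7 tested, 0 were higher and 3 lower in YAP KO (*Kdr*, *Oit3* and *Clec4g*). In YAP KO TAZ HET 1 was higher (*Cdh5*) and 2 were lower (*Kdr* and *Oit3*). The part of these cell types in the values of the 9 factors was not tested, and no marker of these lists was at 0 throughout.

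Among 20 other factors of the hepatocyte network, 2 were higher and 9 lower in YAP KO, and 2 higher and 9 lower in YAP KO TAZ HET. The median log2 fold changes were -0.26 and -0.36. The nuclear receptor genes *Nr1i3* (CAR, of drug and bile acid clearance), *Ppara* (of fatty acid oxidation) and *Nr1h4* (FXR, the bile acid receptor) fell furthest by the mean of both log2 fold changes. Each gene named from these lists passed in both knockouts, at limma adjusted p = 0.0418 or below in the C57BL/6 set and 0.0492 or below in the mixed set. The 3 WT (C57BL/6) livers gave *Nr1i3* at 208 ± 81.3 TPM (SD) against 50.3 ± 12.4 in YAP KO, and at 224 ± 77.6 in WT (mixed) and 74.8 ± 12.2 in YAP KO TAZ HET. *Ppara* went from 43.5 ± 5.66 to 18.4 ± 3.19 TPM in the C57BL/6 set and from 65.9 ± 15.1 to 23.6 ± 14.5 TPM in the mixed set. *Nr1h4* went from 117 ± 17.3 to 69.7 ± 8.32 TPM in the C57BL/6 set and from 114 ± 0.353 to 66.7 ± 18.2 TPM in the mixed set. *Cebpd*, another C/EBP gene of the acute phase, rose from 3.54 ± 0.379 to 13.4 ± 6.4 TPM in the C57BL/6 set and from 3.4 ± 0.643 to 8.7 ± 3.05 TPM in the mixed set, and *Gata6* was the other gene that was higher in both.

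Of 9 tested cofactors and inhibitors of the factors, 2 were higher and 1 lower in YAP KO, and 1 higher and 2 lower in YAP KO TAZ HET. *Nrip1*, a corepressor of nuclear receptors, was the gene that passed in the same direction in both (0.62, limma adjusted p = 0.0268, and 0.42, limma adjusted p = 0.0492). Among 29 classical hepatocyte targets, 2 were higher and 16 lower in YAP KO, and 2 higher and 18 lower in YAP KO TAZ HET, with medians of -0.68 and -0.62. *Ugt2b1*, a glucuronosyltransferase, fell from 237 ± 5.63 to 35.4 ± 3.99 TPM (SD, n = 3) in the C57BL/6 set and from 249 ± 14.3 to 43.3 ± 5.6 TPM in the mixed set. *Ces3a*, a carboxylesterase, fell from 952 ± 117 to 193 ± 49.8 TPM in the C57BL/6 set and from 855 ± 23.8 to 147 ± 58.9 TPM in the mixed set. *Serpina1e*, an alpha-1-antitrypsin gene, fell from 1128 ± 921 to 27.6 ± 6.49 TPM in the C57BL/6 set and from 201 ± 95.2 to 36.3 ± 19.9 TPM in the mixed set. All 3 belong to families of near-identical copies among which reads can be split, so their values are uncertain. The 2 that rose in both were *Igfbp1*, an insulin-like growth factor binding protein of injured and fasted liver (69 ± 33.6 to 1457 ± 886 TPM and 72 ± 71.9 to 711 ± 53.9 TPM), and *Apoa4*, an apolipoprotein (133 ± 27.6 to 489 ± 171 TPM and 199 ± 7.34 to 865 ± 43.8 TPM).

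Acute phase genes, many of them bound by C/EBP-beta, changed in both directions. Of 15 genes, 10 were higher and 5 lower in YAP KO, and 9 higher and 3 lower in YAP KO TAZ HET. *Lcn2* went from 24.5 ± 15.6 to 1330 ± 428 TPM (SD, n = 3) in the C57BL/6 set and from 17.4 ± 4.68 to 1670 ± 511 TPM in the mixed set. *Orm2* (112 ± 60.3 to 2396 ± 888 TPM and 97.5 ± 32.6 to 1607 ± 821 TPM) and *Saa2* (40.2 ± 12.4 to 372 ± 130 TPM and 23.5 ± 15.3 to 368 ± 287 TPM), both with close copies, rose as well. *Saa4* (213 ± 26.5 to 105 ± 18.5 TPM and 155 ± 30.8 to 43 ± 17.1 TPM), *Crp* (437 ± 10.9 to 339 ± 10.9 TPM and 384 ± 70.7 to 297 ± 45.3 TPM) and the interleukin 6 receptor gene *Il6ra* (16.2 ± 5.38 to 11.8 ± 1.73 TPM and 18.7 ± 5.29 to 13.1 ± 4.58 TPM) fell. *Lcn2* is also made by neutrophils and macrophages, whose summed markers are given above, and their part in it was not tested. Of 9 fetal liver genes, only 5 passed the filter on low values in the C57BL/6 set, and 4 in the mixed set. All of those tested were higher in the knockout. *Igf2*, *H19*, *Dlk1* and *Lin28b* were too low to be tested in either set. *Afp* was at 0.658 ± 0.0575 TPM in WT (C57BL/6) and 5.38 ± 1.28 in YAP KO. Its level was 0.764 ± 0.647 TPM in WT (mixed) and 6.25 ± 1.9 in YAP KO TAZ HET. *Hk2* went from 0.53 ± 0.131 to 4.6 ± 0.166 TPM in the C57BL/6 set and from 0.437 ± 0.0749 to 3.48 ± 1.08 TPM in the mixed set, and *Spink1* from 0.242 ± 0.42 to 6.9 ± 8.55 TPM, being listed at 0 in WT (mixed) and at 2.18 ± 1.33 TPM in YAP KO TAZ HET. These 3 genes entered the test through the groups in which they are high, so their calls add nothing to the levels.

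The genes whose pattern over the 12 livers lay closest to each factor were found by the root mean square difference of centred log2(scaled TPM + 1). This is a description with no test, and it says nothing of shared control. *Foxa1* had the closest partner, the D-aspartate oxidase gene *Ddo* (0.06), and then the chaperonin gene *Tcp1* (0.09). *Hnf4a* was nearest to *Ddx27* and *Polr3d* (0.08 each), *Gata4* to *AI837181* (0.09) and *Tbc1d22b* (0.10), and *Cebpa* to the aquaporin gene *Aqp11* (0.14) and *Slc9a3r1* (0.15). *Foxa3* was nearest to *Mthfd1l* and *Nup93* (0.15 each), *Foxa2* to *Zfp629* and *Sertad3* (0.18 each), *Prox1* to *Nop2* (0.20) and *Nolc1* (0.22), and *Cebpb* to *Ccnl1* (0.24) and *Slc25a47* (0.25). *Onecut1* had the largest difference to its nearest genes, *Egfr* (0.47) and *Slc3a1* (0.48), but also the widest spread of its own (0.98). The spread was 0.17 for *Hnf4a* and 0.19 for *Gata4*, so these differences depend on how widely each factor varied. Within the 9 factors the nearest pair was *Foxa1* and *Cebpa* (0.22).

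**Figure D4:**
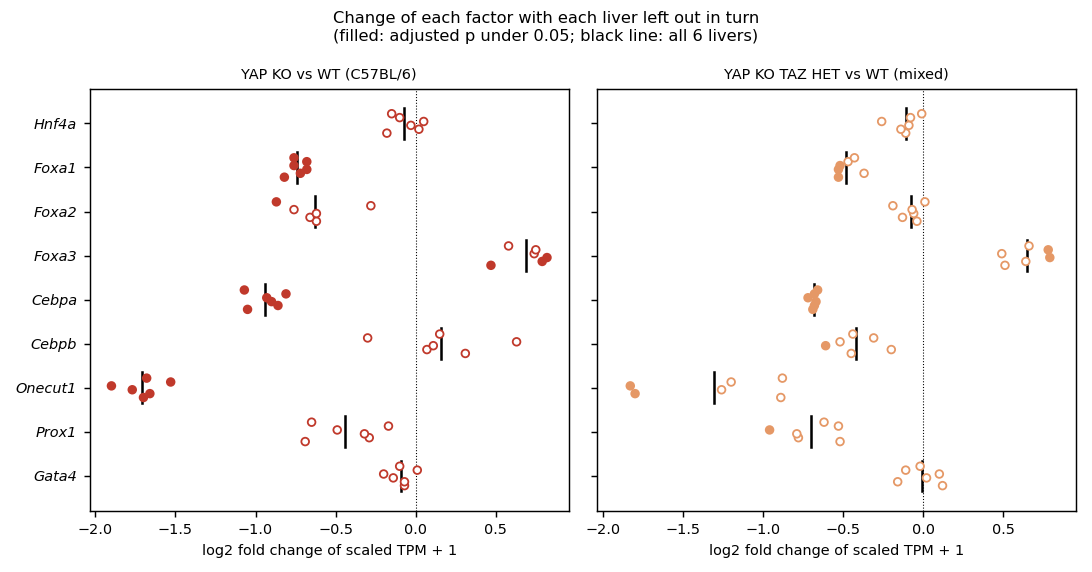
Log2 fold change of scaled TPM + 1 of each factor (x axis) when each of the 6 livers of a comparison is left out in turn (points), for YAP KO (left) and YAP KO TAZ HET (right), with the value from all 6 livers as a black line. Filled points passed an adjusted p of 0.05 (limma). *Cebpa* is filled throughout in both panels, whereas *Foxa2* and *Cebpb* in YAP KO and *Onecut1* in YAP KO TAZ HET each move widely with a single liver.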

How the data were processed

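RNA of frozen whole liver was sequenced as paired reads on an Illumina Novaseq instrument. Reads were aligned and counted on genes of GRCm38 in CLC Genomics Workbench, and the authors deposited TPM for each mouse together with their own comparisons (fold changes, p-values and false discovery rates from edgeR), which are not used here. No TPM column lacked a sample (0 unmapped), and 0 pairs of libraries held identical values. TPM keeps no depth, so counts and the precision of depth are unknown. Replicates were separate mice.

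The 9 genes were matched by name in both tables and had the same coordinates in GENCODE M21. TPM was scaled by an unweighted trimmed mean of log ratios (trimming 30% by log ratio and 5% by mean level), 1 was added and log2 taken. The test was that of limma 3.58.1 (R 4.3.3, eBayes with a trend, two-sided) on genes that reached 1 TPM in 3 or more of the libraries fitted, for each knockout against its own WT (6 libraries), for the WT groups, and for the difference between the models (12 libraries). The code was tested on simulated data with known fold changes. Within-liver ratios used exact permutation tests. Alternatives were other pseudocounts, filters, scalings, variance models and fits, a block of mice with near LM numbers, and leaving out each mouse. The number in a mouse name (LM) came from the labels, which do not say what it means. From each gene list, up to 3 genes higher and 3 lower that passed with the same sign in both models were named, by mean absolute change. The 9 factors and the lists were chosen with earlier results of these data known. *Ddit3*, *Tf*, *Aldoa* and *Fcn3* were not analysed here. Genes that overlap the factors (*Hnf4aos*, *Gm25881*, *Gm45091*, *Gm20649*, *Prox1os* and *Gm28172*) are listed at 0 in all libraries.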

Additional observations from a re-analysis of the deposited data

How the results depend on the processing

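In YAP KO the count of 4 called factors stayed between 3 and 5 under every alternative run (3 to 4 with 1 liver left out). In YAP KO TAZ HET it was 2 with no scaling, with quantile normalization and with the 100 highest genes left out of the total, 1 at an adjusted p under 0.01, and 1 to 4 with 1 liver left out. The counts of 0 for the difference between the models and between the WT groups stayed at 0. The causes were not tested. The groups compared share no replicate numbers, so mice could not be paired by number. A block of mice with near LM numbers, whose meaning the labels do not give, was fitted in YAP KO and gave 4 called factors. Of the ratios, *Prox1* to *Hnf4a* ranged from -0.58 to -0.34 with 1 liver left out and no longer passed in 6 of 12 repeats. *Cebpb* to *Cebpa* (0.39 to 0.91) and *Foxa1* to *Foxa2* (-0.46 to -0.19) passed in 2 and 1 of the repeats.

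Directions of uncalled values turned as follows. With no scaling, log2 fold changes were 0.29 and 0.21 for *Hnf4a* (YAP KO first, then YAP KO TAZ HET), 0.23 and 0.28 for *Gata4* in the same order, and 0.23 for *Foxa2* in YAP KO TAZ HET, and between the WT groups 0.04 for *Hnf4a* and 0.05 for *Foxa3*. With quantile normalization they were 0.25 and 0.25 for *Hnf4a*, 0.01 for *Foxa2* in YAP KO TAZ HET, and -0.01 for *Hnf4a* in the difference between the models. With upper quartile scaling, *Foxa2* was 0.02 and *Gata4* 0.09 in YAP KO TAZ HET. With the 100 highest genes left out, *Hnf4a* was 0.17 and 0.15, *Gata4* 0.13 and 0.23, *Foxa2* 0.17 in YAP KO TAZ HET, and *Foxa3* 0.01 between the WT groups. With 1 liver left out, the values that turned ranged as follows. In YAP KO the ranges were *Hnf4a* -0.18 to 0.05, *Cebpb* -0.30 to 0.63 and *Gata4* -0.20 to 0.01. In YAP KO TAZ HET the ranges were *Foxa2* -0.19 to 0.01 and *Gata4* -0.16 to 0.12. In the difference between the models the ranges were *Hnf4a* -0.08 to 0.18, *Foxa3* -0.19 to 0.19, *Onecut1* -0.84 to 0.12, *Prox1* 0.00 to 0.52 and *Gata4* -0.22 to 0.06. Between the WT groups the ranges were *Hnf4a* -0.14 to 0.06, *Foxa3* -0.24 to 0.13 and *Cebpb* -0.39 to 0.03. For the ratios the ranges were *Cebpb* to *Hnf4a* -0.25 to 0.14 and *Gata4* to *Hnf4a* -0.08 to 0.17.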

Other observations

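The YAP KO liver LM189 lay at the edge of its group for most of the 9 factors, though not always far from the other YAP KO livers. In scaled TPM its *Foxa3* was 53.9 against 55 and 69.3, and its *Foxa2* was 9.36 against 19.3 and 22.6. On the scaled level LM189 was the lowest of its group for 7 factors (*Foxa1*, *Foxa2*, *Foxa3*, *Cebpa*, *Onecut1*, *Prox1* and *Gata4*) and the highest for *Cebpb*, with *Hnf4a* between. Its *Cebpd* (20.8 TPM, against 9.74 and 9.61) and *Igfbp1* (2476 TPM, against 1021 and 873) were the highest of the 12 livers, while its *Lcn2* (906 TPM, against 1761 and 1323) was the lowest of its group. Its summed markers lay within or near those of the other YAP KO livers, at 336 TPM for biliary (against 759 and 346), 586 TPM for Kupffer cell and macrophage (against 797 and 510) and 95714 TPM for hepatocyte markers (against 92454 and 98135). Among YAP KO TAZ HET livers, LM225 was the highest of its group for 7 of the 9 factors on the scaled level and LM251 the lowest for 5.

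*Onecut1* and *Prox1* were highest in the same liver in 3 of the 4 groups (LM192, LM226 and LM225), the exception being YAP KO, where LM74 held the highest *Onecut1* and LM191 the highest *Prox1*. The match is not particular to this pair. On the scaled level *Hnf4a* and *Cebpa* were highest in the same liver in all 4 groups, and *Onecut1* and *Gata4* in 3 of the 4. These matches were noticed in the data, are a description, and were not tested.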
